A study of Mus musculus with 24 samples.

Results

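The Lilrb4, CD300 and Fc receptor genes described here are 10 named genes of the myeloid immune system that were measured in the mouse hippocampal CA1 subfield after status epilepticus (SE). They are Lilrb4a, Lilrb4b, Cd300lb, Cd300lf, Cd300a, Cd72, Fcgr1, Fcgr2b, Fcgr3 and Fcer1g, found by symbol among the 18647 genes of the count table, and all 10 passed the filter on low counts that left 18153 genes. The list was drawn up from differences between SE and control libraries that were already known, so the levels and calls of SE against control below describe that choice and support nothing. Adult C57Bl/6N mice of at least 60 days received 1 mg/kg scopolamine methyl nitrate, then 335 mg/kg pilocarpine hydrochloride to induce SE, and later 4 mg/kg diazepam, and their CA1 was taken 6, 12, 24, 36 or 72 h afterwards. Control mice (Ctr) received the same scopolamine and diazepam with saline in place of pilocarpine and were sampled at 12, 36 and 72 h. Mice in which pilocarpine did not bring on SE were left out of the study. Each of the 8 groups had 3 polyA RNA libraries, 24 in all, and because the labels do not say whether replicates came from separate animals, p-values measure only the spread between these libraries. CA1 was dissected by hand from slices, so each library holds all cell types of the tissue.

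These receptors come in pairs that push a myeloid cell in opposite directions. Activating members such as Fcgr1 and Fcgr3 have no signalling tail of their own and pair with the adaptor chain encoded by Fcer1g. Its immunoreceptor tyrosine-based activation motif (ITAM) recruits the kinase Syk. Inhibitory members such as Fcgr2b, Lilrb4a, Cd300a, Cd300lf and Cd72 carry inhibitory motifs (ITIMs) that recruit the phosphatases SHP-1 and SHIP. In the brain, microglia are the main resident cells that use such receptors, to sense immunoglobulin, lipids of dying cells and matrix proteins, whereas Cd72 is best known from B cells.

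In brief, all of the 10 genes but Cd300a can be set in 3 groups by their calls between SE times. Both Lilrb4 genes and Cd300lf were already high at 6 h, and no step between later SE times was called for them with edgeR on all libraries. With limma-voom, Lilrb4a and Cd300lf were called higher at 72 h than at 12 h. Among SE times, Lilrb4b was instead highest at 24 h and lowest at 72 h. Its fall from 12 to 72 h was called without SE 72 h replicate 1 (log2FC -1.22, edgeR adjusted p = 0.0177). Fcgr1, Fcgr2b, Fcgr3, Fcer1g and Cd72 were higher at 72 h than at 12 h after SE, by 2.53-fold to 6.89-fold. With the difference between the control groups subtracted, Fcgr2b was no longer called (log2 difference 0.43, edgeR adjusted p = 0.436). Fcgr1, Fcgr3, Fcer1g and Cd72 still were. Cd300lb peaked at 36 h and fell 7.87-fold by 72 h. Cd300a overlapped the controls at every time. It was called higher at 72 h than at 12 h after SE (log2FC 1.89, edgeR adjusted p = 0.0199), but the call was lost without some single libraries.

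Library totals ranged from 2663936 to 30133731 counts (median 13521590). The shallowest, Ctr 72 h replicate 3, held 2663936, where 3 counts correspond to 1.12 CPM (counts scaled by library size to a common total), so values below that level in it are not informative. Summed levels of 9 sensory ganglion genes, which CA1 should lack, ranged from 3.74 to 1006 CPM over 23 libraries and reached 1841 CPM in Ctr 72 h replicate 2, with SE libraries of 6, 12, 36 and 72 h at up to 350, 704, 906 and 1006 CPM. Their part in the results was not tested, and values without Ctr 72 h replicate 2 are given where they differ. Of 6 CA1 pyramidal cell markers, 5 were tested, including Wfs1 and Fibcd1, and their summed level was 722 to 1440 CPM in controls and 302 to 885 CPM after SE.

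Lilrb4a and Lilrb4b lie next to each other on chromosome 10 (GRCm39, Lilrb4a at chr10:51367027-51372707 and Lilrb4b at chr10:51356728-51362799, both on the plus strand) and arose as copies of a receptor gene. The 250 bases before their start sites are shown because the genes are near-identical copies that were measured apart. Capitals mark bases that differ between the aligned sequences or that have no partner in the alignment.
Lilrb4a, chr10:51366777-51367026, plus strand: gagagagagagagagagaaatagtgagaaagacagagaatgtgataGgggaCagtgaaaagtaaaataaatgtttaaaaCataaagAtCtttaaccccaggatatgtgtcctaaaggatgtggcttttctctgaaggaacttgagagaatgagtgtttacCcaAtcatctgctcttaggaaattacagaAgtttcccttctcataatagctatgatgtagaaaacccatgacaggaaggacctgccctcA
Lilrb4b, chr10:51356478-51356727, plus strand: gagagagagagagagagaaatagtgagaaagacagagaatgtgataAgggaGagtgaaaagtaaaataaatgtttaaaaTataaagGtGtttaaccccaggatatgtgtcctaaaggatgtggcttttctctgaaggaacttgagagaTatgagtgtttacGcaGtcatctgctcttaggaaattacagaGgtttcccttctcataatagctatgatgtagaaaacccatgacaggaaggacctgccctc
Of 249 aligned bases, 241 were identical (96.8%), against 91.5% between their longest transcripts. By contrast, the promoters of Fcgr2b and Fcgr3 were 60.6% identical and those of Cd300lb and Cd300lf 60.8%. Of the 100-base windows of Lilrb4a transcripts, 34.6% also occurred without a mismatch in another gene, namely Lilrb4b or the overlapping models Gm40645 and Gm49339, and for Lilrb4b this share was 9.29%. Reads from such windows map to more than a single place or gene and are left out by the counting that the authors used, so the levels of both genes, and of Lilrb4a in particular, are uncertain.

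The promoters of Cd72 (chr4:43455130-43455379, minus strand) and Fcer1g (chr1:171062220-171062469, minus strand) are shown as those of 2 of the genes that were highest at 72 h, both of which hold GAGGAA. Each GAGGAA, the core bound by PU.1 and other ETS factors, is in capitals as read on either strand (TTCCTC is the same motif on the other strand).
Cd72, 250 bases before its start: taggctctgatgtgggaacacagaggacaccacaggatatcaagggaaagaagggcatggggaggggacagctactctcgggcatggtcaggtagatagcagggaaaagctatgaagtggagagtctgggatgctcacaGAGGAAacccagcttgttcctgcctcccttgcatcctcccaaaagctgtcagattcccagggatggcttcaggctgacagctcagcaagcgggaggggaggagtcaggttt
Fcer1g, 250 bases before its start: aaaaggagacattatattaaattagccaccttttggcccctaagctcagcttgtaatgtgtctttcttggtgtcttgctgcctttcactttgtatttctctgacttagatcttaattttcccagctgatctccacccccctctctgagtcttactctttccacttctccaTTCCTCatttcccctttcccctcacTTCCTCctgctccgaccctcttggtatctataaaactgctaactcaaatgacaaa
GAGGAA occurred on either strand of the same window in 4 of the 10 members, Cd300lf, Cd300a, Cd72 and Fcer1g, and in 23.2% of the promoters of 15431 protein-coding genes of the table. It did not occur in that window of Fcgr1, Fcgr2b or Fcgr3, which were also highest at 72 h. TGTGGT, the core of RUNX sites, occurred in 1 member (Cd72) and in 11.8% of all promoters. The AP-1 motif TGANTCA occurred in 0 members and in 4.89% of all promoters. These are letter matches in GRCm39 with GENCODE M39 start sites, and no binding was measured.

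**Figure D1:**
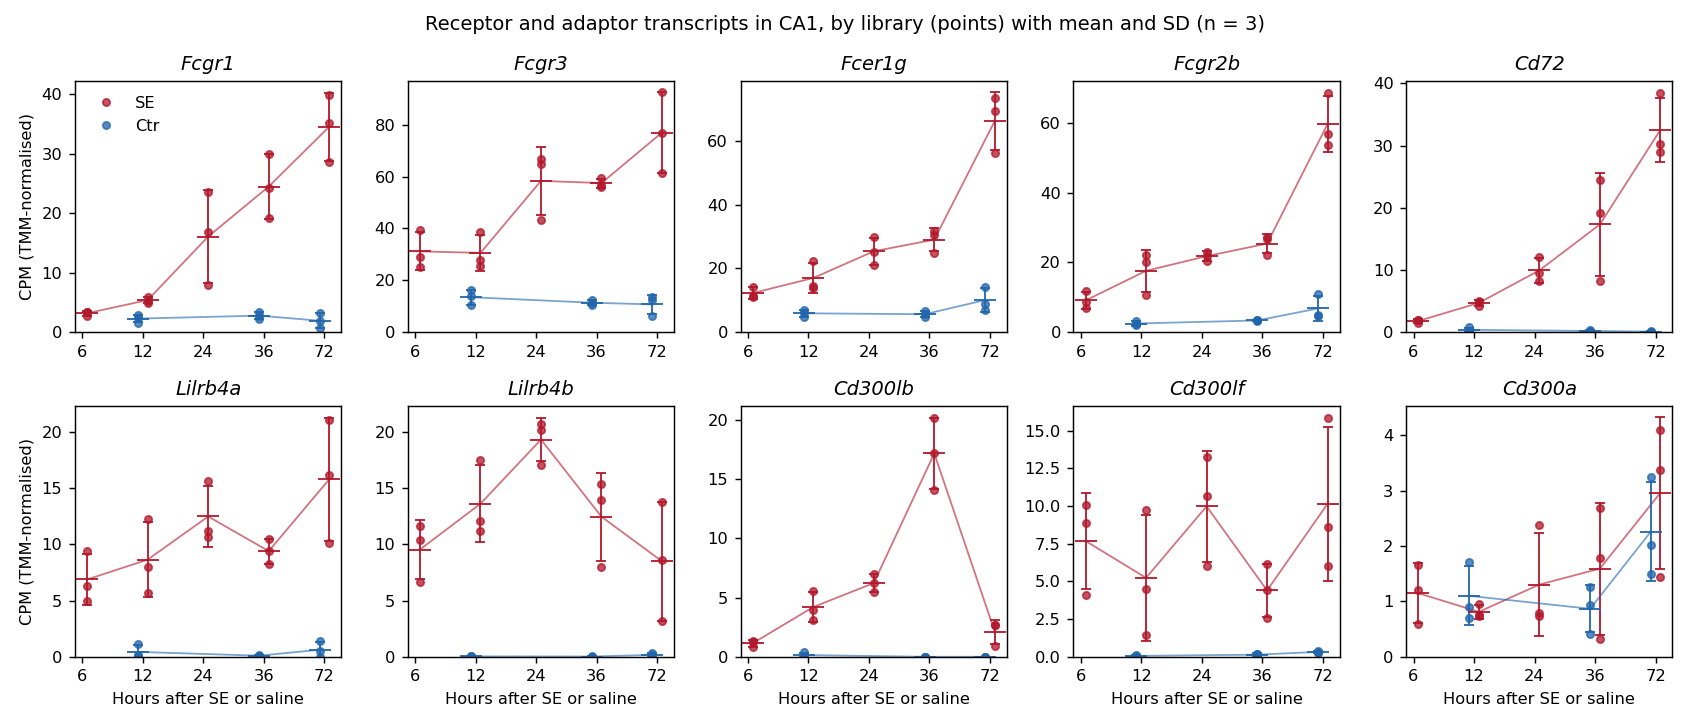
Level of each gene in CPM (y axis, linear, scaled per gene) by hours after SE or saline (x axis, times evenly spaced). Points are libraries, and crossbars with error bars are the mean ± SD of 3 libraries, red for SE and blue for Ctr. Fcgr1, Fcgr2b, Fcer1g and Cd72 climb to 72 h, Cd300lb peaks at 36 h, and Cd300a overlaps the controls throughout.

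In saline controls the 10 genes differed widely in level. Compared per kilobase of exon, because longer genes collect more reads, Fcer1g had the highest median over the 9 control libraries (5.65 CPM per kb), followed by Fcgr3 (3.96), Fcgr1 (0.665), Fcgr2b (0.577) and Cd300a (0.254). The ranges of Fcer1g (4.04 to 12.4) and Fcgr3 (2.06 to 5.20) overlapped, as did those of Fcgr1 and Fcgr2b. Cd72, Cd300lf, Lilrb4a, Lilrb4b and Cd300lb had control medians of at most 0.0524 CPM per kb. Of the 9 control libraries, 7 held no count of Cd300lb, 4 none of Lilrb4b, 2 none of Cd300lf, 2 none of Cd72 and 1 none of Lilrb4a. At 72 h after SE the order per kilobase was Fcer1g (57.2 ± 7.78, SD, n = 3), Fcgr3 (24.9 ± 5.01), Fcgr2b (10.2 ± 1.35), Fcgr1 (9.89 ± 1.63), Cd72 (8.22 ± 1.31), Lilrb4a (3.01 ± 1.04), Cd300lf (1.97 ± 0.992), Lilrb4b (1.56 ± 0.978), Cd300lb (0.726 ± 0.346) and Cd300a (0.601 ± 0.279). On this scale Fcgr2b, Fcgr1 and Cd72 were within their spread of each other, as were Lilrb4a, Cd300lf and Lilrb4b, and Cd300lb and Cd300a. The scale divides by all exon bases, although 2349 of 3954 in Cd72 and 1959 of 5252 in Lilrb4a also lie in other genes. Reads shared between genes were not counted, so both levels may be too low and the places of Cd72 and Lilrb4a in the order are uncertain.

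Between SE and control, 9 of the 10 genes were called higher (adjusted p at most 0.05 and a log2 fold change, log2FC, of at least 0.66) at 12 h, beside 13.9% of all genes called higher there. The same number was called at 36 h (12.7% of all genes) and at 72 h (15.2%), and it was the same 9 genes, all but Cd300a, each time, beside 4.64% of all genes called higher at the 3 times alike. Against the mean of the 3 control groups, since 6 and 24 h have no controls of their own, 8 were called higher at 6 h (15.8% of all genes) and 9 at 24 h (15% of all genes), with Fcgr1 missing at 6 h. In 6 genes, Lilrb4a, Lilrb4b, Cd300lb, Cd300lf, Cd72 and Fcgr3, all 15 SE libraries lay above all 9 controls, beside 3.03% of all genes. The members were selected on this contrast, so nothing is read from these counts. At 12, 36 and 72 h the 10 had a median log2FC of 3.36, 3.97 and 4.42, where the medians of all genes were 0.0071, 0.0026 and 0.095. With Cd300lb, which held no control count at 36 and 72 h, put at its lower bound, the median at 72 h was 3.75 and that at 36 h stayed at 3.97. In bulk tissue, more cells of a type and more RNA per cell cannot be told apart.

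Among the Fc receptors, Fcgr1 encodes the high-affinity receptor for IgG. It stood at 3.44, 3.43 and 2.68 CPM in the 3 libraries of 6 h and at 4.97, 5.30 and 5.90 CPM at 12 h. It reached 23.5, 7.84 and 16.9 CPM at 24 h, 29.9, 19.2 and 24.3 CPM at 36 h and 28.5, 39.9 and 35.1 CPM at 72 h, against 0.682 to 3.38 CPM over the 9 controls. The 6 h libraries thus overlapped the controls, and all later SE libraries lay above them. Fcgr1 rose from 12 to 24 h with a log2FC of 1.58 (s.e. 0.30, adjusted p = 0.00365), when 1.49% of all genes rose and Fcgr1 was the only member called. With a fit of the compared groups only, this call was lost (log2FC 1.52, adjusted p = 0.0959). Against control its log2FC was 1.21 (s.e. 0.32) at 12 h, 3.15 (s.e. 0.32) at 36 h and 4.23 (s.e. 0.37) at 72 h.

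Fcgr3, a low-affinity activating IgG receptor, was the member with the highest CPM in controls, at 6.37 to 16.1 CPM over 9 libraries. After SE it stood at 25.1, 39.3 and 29.1 CPM at 6 h and at 25.5, 27.7 and 38.5 CPM at 12 h. It was at 66.8, 43.4 and 64.8 CPM at 24 h, at 59.4, 56.1 and 56.9 CPM at 36 h and at 61.5, 76.9 and 92.5 CPM at 72 h. All 3 libraries of 24 h lay above all 3 of 12 h. From 12 to 24 h the log2FC of Fcgr3 was 0.93 (s.e. 0.23, adjusted p = 0.016), which is below the threshold of 1 used between SE times, and over the longer step from 12 to 72 h it rose by a log2FC of 1.34 (s.e. 0.23, adjusted p = 0.000167).

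Fcer1g encodes the adaptor chain that Fcgr1 and Fcgr3 need to reach the surface and signal. It stood at 11, 14.3 and 11.5 CPM at 6 h, where it overlapped the control range of 4.68 to 14.3 CPM. The overlap came only from the highest control, Ctr 72 h replicate 2. Without that library, Fcer1g at 6 h lay above all controls, which did not exceed 8.9986 CPM. It then stood at 14, 14.7 and 22.4 CPM at 12 h, 29.7, 21.3 and 25.2 CPM at 24 h, 30.5, 25 and 31.7 CPM at 36 h and 56.2, 69.3 and 73.5 CPM at 72 h. From 36 to 72 h Fcer1g rose by a log2FC of 1.20 (s.e. 0.21, adjusted p = 0.0011), and the SE libraries of these times did not overlap. The step was 0.45 and not called once the difference between the control groups of 72 and 36 h was subtracted (adjusted p = 0.422), since the controls stood at 5.63 ± 0.891 CPM at 36 h and 10.1 ± 3.82 CPM at 72 h (SD, n = 3). From 12 to 72 h Fcer1g rose by a log2FC of 1.97 (s.e. 0.21, adjusted p = 1.25e-06).

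Fcgr2b encodes the classical inhibitory receptor for IgG. It stood at 8.63, 11.7 and 6.96 CPM at 6 h, 22.1, 10.6 and 20.0 CPM at 12 h and 20.3, 21.9 and 23.1 CPM at 24 h. The 36 h libraries held 26.6, 27.4 and 22.2 CPM and those of 72 h 53.6, 56.7 and 68.6 CPM, with controls from 1.93 to 10.9 CPM. The control of 10.9 CPM was again Ctr 72 h replicate 2, and the other 8 controls did not exceed 4.87 CPM. Fcgr2b rose from 36 to 72 h by a log2FC of 1.23 (s.e. 0.23, adjusted p = 0.00212) and from 12 to 72 h by 1.79 (s.e. 0.23, adjusted p = 1.15e-05). With the difference between the control groups subtracted, neither step was called (0.35, adjusted p = 0.614, and 0.43, adjusted p = 0.436). Fcgr2b was also the only member called among the 3 control groups (adjusted p = 0.0426, where 1.54% of all genes were called), but the call was lost without Ctr 72 h replicate 2 (adjusted p = 0.368) and also without Ctr 12 h replicate 2 or 3 or any of the 3 libraries of Ctr 36 h (adjusted p = 0.0634 to 0.0868). From 6 to 12 h its log2FC was 0.94 (s.e. 0.24, adjusted p = 0.03), under the threshold of 1.

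The balance of the inhibitory to the activating Fc receptors was read within each library, where library size cancels, as the log2 ratio of counts. The ratio of Fcgr2b to Fcgr1 was 1.32, 1.75 and 1.37 in the libraries of 6 h and 2.15, 1.00 and 1.76 in those of 12 h. It was -0.17, 0.51 and -0.13 at 36 h and 0.91, 0.51 and 0.97 at 72 h, so all 6 libraries of 36 and 72 h lay below all 6 of 6 and 12 h. At 24 h it was -0.21, 1.48 and 0.45, across both ranges. Over the 9 controls it ran from -0.34 to 3.84, the highest in Ctr 72 h replicate 2, with replicates 1 and 3 at 0.5014 and 1.2955. Ctr 12 h ran from -0.34 to 0.98 and Ctr 36 h from 0 to 0.72. All 6 SE libraries of 36 and 72 h thus lay within the range of Ctr 12 h. All 6 SE libraries of 6 and 12 h lay above Ctr 12 h and Ctr 36 h. A difference between SE and control was not tested for this ratio. The mean was 1.56 ± 0.405 (SD, n = 6) at 6 and 12 h and 0.432 ± 0.491 (SD, n = 6) at 36 and 72 h, a difference of -1.13 (two-sided exact permutation test, p = 0.00216, the smallest that 6 against 6 libraries can give, and 0.00864 after adjustment over the 4 ratios tested). For 72 h against 6 h only, the difference was -0.69 (exact permutation p = 0.1, the smallest that 3 against 3 libraries can give). Against this, the ratio of Fcgr2b to Fcgr3 was -1.31 ± 0.656 early and -0.771 ± 0.473 late, and the difference of 0.54 did not pass (exact permutation p = 0.136, adjusted p = 0.181). Without SE 12 h replicate 1 that difference was 0.762 (exact permutation p = 0.0303), and for 72 h against 6 h only it was 1.42, with no overlap between the 3 libraries of each (exact permutation p = 0.1).

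**Figure D2:**
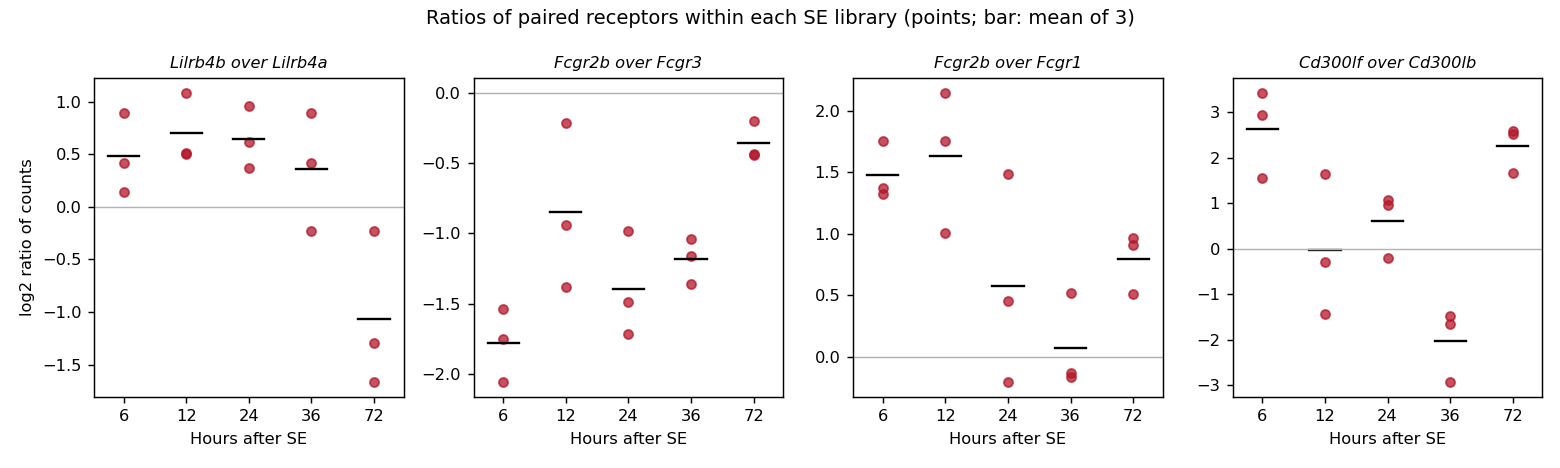
Log2 ratio of the counts of 2 genes within each SE library (y axis) by hours after SE (x axis, times evenly spaced), with points for libraries and bars for the mean of 3. The ratio of Fcgr2b to Fcgr1 lies between 1.00 and 2.15 at 6 and 12 h and between -0.17 and 0.97 at 36 and 72 h, and that of Lilrb4b to Lilrb4a lies below 0 in all 3 libraries of 72 h.

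Cd72 encodes an ITIM receptor that binds semaphorin 4D. It was at 0 to 0.757 CPM in the 9 controls in all. After SE its levels were 1.92, 1.47 and 2.00 CPM at 6 h, 5.07, 4.81 and 4.22 CPM at 12 h and 9.45, 8.23 and 12.1 CPM at 24 h. They were 19.2, 8.28 and 24.4 CPM at 36 h and 30.2, 38.4 and 28.9 CPM at 72 h, so that SE libraries of 6, 12, 24 and 72 h formed 4 separate steps and those of 36 h reached down into the range of 24 h. Cd72 rose from 6 to 12 h by a log2FC of 1.37 (s.e. 0.39, adjusted p = 0.0476), beside 0.457% of all genes, and from 12 to 72 h by 2.78 (s.e. 0.37, adjusted p = 1.16e-05). The first of these calls was lost when any of the 6 libraries was left out (adjusted p = 0.0558 to 0.139). At 72 h the controls held 3 counts of Cd72 in all against 1506 after SE, a ratio of 213.5 with a 95% exact interval of 72.9 to 1037, which covers counting error only. Of its 100-base transcript windows, 43.3% also lie in Tesk1, which overlaps it on the other strand, and counting ignored the strand. Tesk1 was at 29.5 to 47.8 CPM in controls, where Cd72 was at most 0.757 CPM, and at 26.9 to 38.3 CPM at 72 h after SE.

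Both Lilrb4 genes lay above all controls from 6 h on. Lilrb4b stood at 0 to 0.338 CPM in the 9 controls, and at 6.63, 11.7 and 10.4 CPM at 6 h after SE. It was at 12.1, 11.2 and 17.5 CPM at 12 h, 20.2, 17.1 and 20.7 CPM at 24 h, 14, 15.4 and 8.03 CPM at 36 h and 13.8, 3.15 and 8.57 CPM at 72 h. The libraries of 24 h lay above those of 6 h. No consecutive step was called for it with edgeR, and the F test over the 5 SE times gave an adjusted p of 0.0738 with edgeR, 0.019 with limma-voom and 0.00875 without SE 72 h replicate 1. At 12 h, 2 counts in the controls stood against 803 after SE (ratio 325.2, 95% exact interval 89.7 to 2690, counting error only).
Lilrb4a was at 0 to 1.36 CPM in the controls, and the highest was again Ctr 72 h replicate 2. After SE it was at 4.95, 6.27 and 9.43 CPM at 6 h, 5.72, 7.96 and 12.3 CPM at 12 h, 15.6, 11.2 and 10.7 CPM at 24 h, 10.5, 8.28 and 9.40 CPM at 36 h and 16.2, 10.1 and 21 CPM at 72 h. The libraries of 24 and 72 h lay above those of 6 h. Its log2FC from 12 to 72 h was 0.88 (s.e. 0.47, adjusted p = 0.149) and that of Lilrb4b was -0.65 (s.e. 0.38, adjusted p = 0.188), neither called with edgeR, whereas limma-voom called Lilrb4a (1.04, adjusted p = 0.00709). Without SE 72 h replicate 1 the fall of Lilrb4b over that span was called (-1.22, adjusted p = 0.0177).

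The share of Lilrb4b in the counts of both Lilrb4 genes was 57.2%, 65.0% and 52.4% at 6 h, 68.0%, 58.5% and 58.8% at 12 h and 56.4%, 60.5% and 66.1% at 24 h. It was 57.1%, 65.0% and 46.1% at 36 h and 46.0%, 23.7% and 28.9% at 72 h, so the libraries of 72 h lay below all those of earlier times. In the test fixed for this ratio, which pools 36 with 72 h and 6 with 12 h, the late minus early difference in log2 ratio was -0.94 and did not pass (exact permutation p = 0.0541, adjusted p = 0.108). For 72 h against 6 h only it was -1.55 (exact permutation p = 0.1, the smallest possible). It passed before adjustment without SE 36 h replicate 2 (p = 0.00433, exact permutation) or without SE 36 h replicate 1 (p = 0.0368, exact permutation). Over the 15 SE libraries the log2 levels of these 2 near-identical genes had a Pearson r of 0.228, in libraries that share depth and dissection.

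The CD300 genes lie within a cluster on chromosome 11 (GRCm39, Cd300a at chr11:114768840-114795480, Cd300lb at chr11:114813607-114825212 and Cd300lf at chr11:115007040-115024818) and encode receptors for lipids of dying cells and membranes. Cd300lb, an activating member, held no count in any control of 36 or 72 h and at most 0.379 CPM at 12 h. After SE it was at 1.36, 1.27 and 0.807 CPM at 6 h, 5.57, 3.94 and 3.11 CPM at 12 h, 6.27, 6.97 and 5.47 CPM at 24 h and 17.3, 20.2 and 14.1 CPM at 36 h. By 72 h it was back at 2.72, 0.954 and 2.68 CPM, and every library of 36 h was above every other SE library. It rose from 6 to 12 h (log2FC 1.92, s.e. 0.50, adjusted p = 0.0398) and fell from 36 to 72 h by 2.98 on the log2 scale (s.e. 0.48, adjusted p = 0.00118), the only member to fall there, beside 1.06% of all genes. The first call was lost without any of 5 of the 6 libraries (adjusted p = 0.0577 to 0.175). From 24 to 36 h the log2FC was 1.45 (s.e. 0.45, adjusted p = 0.127), not called with edgeR but called with DESeq2 (adjusted p = 0.00468) and limma-voom (adjusted p = 0.00805). Against controls taken at 3 counts per library, Cd300lb was at least 83.3-fold higher at 36 h and at least 3.36-fold higher at 72 h.

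Cd300lf, an inhibitory member, was at 0 to 0.375 CPM in the controls. It stood at 4.08, 10.1 and 8.87 CPM at 6 h, 4.52, 1.46 and 9.72 CPM at 12 h and 13.3, 6.01 and 10.7 CPM at 24 h. It was at 6.15, 2.60 and 4.44 CPM at 36 h and at 15.9, 6.01 and 8.57 CPM at 72 h, and the ranges of any pair of times overlapped. The F test of edgeR over SE times gave an adjusted p of 0.204, but limma-voom gave 0.0373 and called a rise of Cd300lf from 12 to 72 h (log2FC 1.61, adjusted p = 0.011). Without SE 12 h replicate 3, edgeR called both as well (adjusted p = 0.0357 for the F test, and a log2FC of 1.81 with adjusted p = 0.0191). The log2 ratio of Cd300lf to Cd300lb was 1.56, 2.94 and 3.43 at 6 h, -1.48, -2.94 and -1.66 at 36 h and 2.53, 2.60 and 1.67 at 72 h. Early and late times pooled did not differ past the threshold (difference -1.19, exact permutation p = 0.331, adjusted p = 0.331).

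Cd300a, an inhibitory member, is the only gene of the 10 that was not called against control at any time. It was at 0.411 to 3.24 CPM in the 9 controls and at 0.315 to 4.08 CPM in the 15 SE libraries, with log2FC of -0.40 (s.e. 0.63), 0.83 (s.e. 0.62) and 0.46 (s.e. 0.61) at 12, 36 and 72 h. It rose from 12 h (0.745, 0.729 and 0.956 CPM) to 72 h after SE (4.08, 1.43 and 3.36 CPM) by a log2FC of 1.89 (s.e. 0.61, adjusted p = 0.0199). The control libraries stood at 1.70, 0.899 and 0.696 CPM at 12 h and 2.03, 3.24 and 1.5 CPM at 72 h, and with their difference subtracted the value was 0.86 (adjusted p = 0.517). The call was also lost without SE 12 h replicate 1 or 2 or SE 72 h replicate 1 or 3 (adjusted p = 0.0514 to 0.0739).

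Counted over the SE times, 2 members were called from 6 to 12 h (1.34% of all genes), 1 from 12 to 24 h (3.2%), 0 from 24 to 36 h (0.545%) and 3 from 36 to 72 h (4.18%). The count of 0 from edgeR stood beside 4 members with an unadjusted p under 0.05, and DESeq2 and limma-voom called 1 each. From 12 to 72 h, 6 of 10 were called higher, beside 9.54% of all genes, and none was called lower. The F test of edgeR over the 5 SE times called 6 of 10 (Cd300lb, Cd72, Fcgr1, Fcgr2b, Fcgr3 and Fcer1g) where it called 46.6% of all genes, a share not far from the background. Other settings called 6 to 9, with limma-voom adding Lilrb4a (adjusted p = 0.0306), Lilrb4b and Cd300lf.

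**Figure D3:**
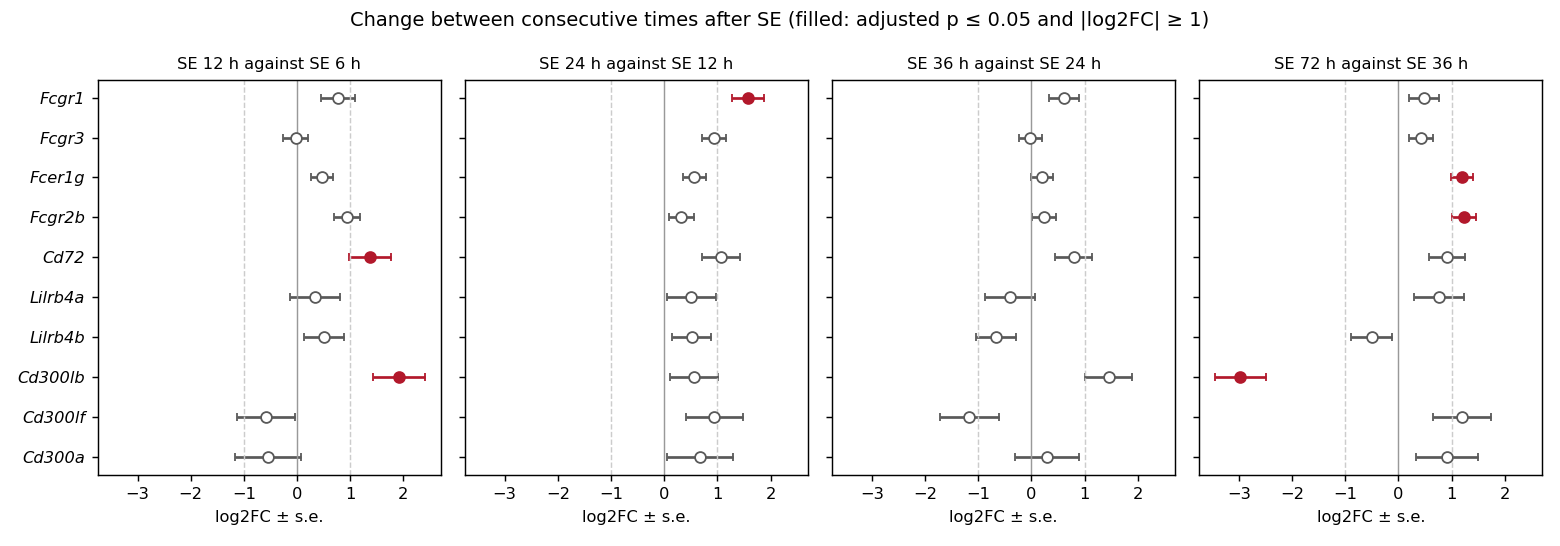
Log2FC with its s.e. (x axis) for each gene (rows) between consecutive times after SE, with filled red points for calls and dashed lines at a log2FC of -1 and 1. Cd300lb and Cd72 are called from 6 to 12 h, Fcgr1 from 12 to 24 h, and Cd300lb (lower), Fcgr2b and Fcer1g (higher) from 36 to 72 h.

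Pairwise correlations between members over the 15 SE libraries ranged from -0.298 to 0.948 (median 0.441, 45 pairs). Fcer1g correlated with Fcgr2b (r = 0.939), Cd72 (0.919), Fcgr1 (0.916) and Fcgr3 (0.906), and less with Lilrb4b (-0.247), Cd300lb (0.11) and Cd300lf (0.338). Of all genes whose log2 CPM averaged 1 or more, those with profiles most like Fcer1g were C1qb (r = 0.991), Ctsz (0.989) and Trem2 (0.986). Those most like Fcgr1 were Tspo (0.981), Cd180 (0.969) and Bst2 (0.966). AU020206 (0.97), Tifab and Tapbp were most like Cd72, Nfam1 (0.953) and Sash3 most like Fcgr2b, and Rab5c (0.955) and Cd84 most like Fcgr3. Among other members, Col6a5 (0.922) was most like Lilrb4b, Ftl1 (0.914) most like Lilrb4a, E2f3 (0.964) most like Cd300lb and Thbs3 (0.834) most like Cd300lf. All are over 15 libraries that share times, depth and dissection.

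Marker genes of the cell types in the tissue were read in the same libraries. The 12 microglial markers, which include Tmem119, P2ry12, Cx3cr1, Csf1r and C1qa, summed to 359 to 488 CPM over the 9 controls, to 253 to 274 CPM at 6 h and to 274 to 356 CPM at 12 h after SE. Against control at 12 h, 0 of the 12 were called higher and 5 lower, where 11.4% of all genes were called lower. At 24 and 36 h the markers summed to 489 to 667 and 658 to 769 CPM. At 36 h, 5 were called higher and 2 lower, beside 12.7% and 8.96% of all genes. At 72 h they summed to 1364 to 2043 CPM and 11 of 12 were called higher (15.2% of all genes), over the span in which Fcgr2b and Fcer1g rose. P2ry12 was at 3.38 CPM at 12 h against 44.1 CPM in controls (means, n = 3), and at 62.8 CPM at 72 h. Summed levels of 6 astrocyte markers were 3536 to 4879 CPM in controls and 5132 to 13319 CPM after SE, and those of 8 endothelial markers were 246.4 to 367 and 392 to 572 CPM, so that all SE libraries lay above all controls in both. The 6 neuronal markers summed to 8669 to 15583 CPM in controls and to 5434 to 9963 CPM after SE. Of these, 2, 3 and 3 were called lower at 12, 36 and 72 h and none higher, beside 11.4%, 8.96% and 4.15% of all genes called lower. The part of the amount of RNA from any of these cell types in the course of the receptor genes was not tested.

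**Figure D4:**
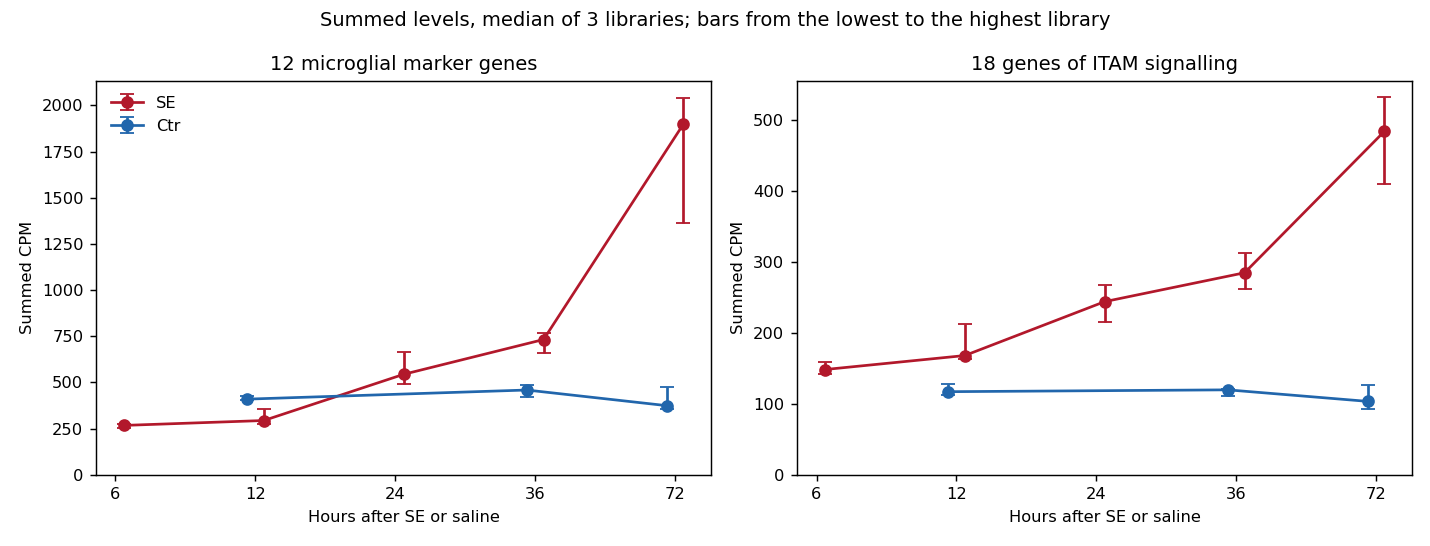
Summed CPM of the 12 microglial markers (left) and of 18 genes of ITAM signalling (right), by hours after SE or saline (x axis, times evenly spaced), as the median of 3 libraries with bars from the lowest to the highest. The microglial sum lies below the controls at 6 and 12 h and reaches 1364 to 2043 CPM at 72 h, whereas the ITAM sum is above the controls from 6 h.

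Markers of other leukocytes were summed in the same way. Of 10 monocyte markers 6 were tested, and they summed to 49.9 to 68.8 CPM in controls and 80.0 to 163 CPM after SE, of which Vcan and Ly6c1, also expressed by brain cells, made up most. Ccr2 averaged 0 to 1.39 CPM in the control groups and 0.143 to 3.21 CPM after SE, and Chil3 reached 11.7 CPM at 72 h. For monocyte markers 1, 3 and 4 genes were called higher at 12, 36 and 72 h, and 1, 2 and 3 of 8 markers of border macrophages, whose sum was 3.80 to 28.3 CPM in controls and 7.69 to 35.9 CPM after SE. Of all genes, 13.9%, 12.7% and 15.2% were called higher at these times and 11.4%, 8.96% and 4.15% lower, so both lists were near that share at 12 h. The 6 tested neutrophil markers summed to 0 to 22.5 CPM in controls and 0.298 to 19.5 CPM after SE. At 12 h 3 of them were called higher (S100a8, S100a9 and Ltf), at 36 h Ltf higher and Ngp lower, and at 72 h Ngp, Camp and Ltf higher. The mean CPM of Ltf at 72 h was nonetheless 2.96 in controls and 0.985 after SE and that of Camp 0.341 and 0.233, so for both genes the fitted change and the mean levels differed in direction. For Ngp at 72 h, a fitted log2FC of 25.55 stood on means of 0.625 CPM in controls and 1.05 CPM after SE. The fitted sizes of all 3 genes at 72 h are therefore not reliable. Of 9 B cell markers 4 were tested, and Cd79b averaged at most 1.08 CPM in any group and Pax5 at most 2.08 CPM, while Ighm averaged 7.88 CPM in controls and 14.3 CPM after SE at 72 h. Cd22 was called higher at 12, 36 and 72 h, with means at 72 h of 0.25 CPM in controls and 4.36 CPM after SE. The B cell sum was 15.6 to 27.1 CPM at 72 h after SE, above all 9 controls (5.62 to 13.3 CPM), at the time when Cd72 was highest. Ighm made up most of this sum and was not called at 72 h (log2FC 0.93, edgeR adjusted p = 0.264). Cd79b and Pax5 were not called against control at 12, 36 or 72 h. Both tested T and NK cell markers, Cd4 and Trac, averaged at most 1.16 CPM. Of 8 mast cell markers, Cpa3 and Hdc were tested and summed to at most 6.31 CPM in any library. Dendritic cell markers (4 tested) summed to 19 to 44.8 CPM over all libraries. Their part in the results was not tested.

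Of 18 genes of ITAM signalling, all tested, 11 were called higher at 12 h, 15 at 36 h and 16 at 72 h and none lower, beside 13.9%, 12.7% and 15.2% of all genes called higher, with medians of log2FC of 1.20, 1.83 and 2.85. Against the mean of the control groups, 9 were called higher at 6 h (15.8% of all genes) and 14 at 24 h (15% of all genes). At each of these times 1 was called lower, Card9 (-0.81, s.e. 0.27) at 6 h and Vav3 (-0.95, s.e. 0.33) at 24 h, beside 6.2% and 9.24% of all genes. Tyrobp, an ITAM adaptor separate from Fcer1g, averaged 8.14 CPM in controls and 18.1 CPM after SE at 12 h. At 72 h it averaged 11.5 and 81.0 CPM (log2FC 2.79, s.e. 0.21, edgeR adjusted p = 6.86e-09). The kinase Syk, which docks on the ITAM, had a log2FC of 1.64 (s.e. 0.28) at 12 h and 2.83 (s.e. 0.33) at 72 h. Pik3ap1, a link to PI3 kinase, was the gene with the largest called log2FC at 72 h (4.15, s.e. 0.41). The kinase Fgr, barely present in controls (0.0129 CPM at 12 h), had the largest value at 12 h (5.76, s.e. 1.01). Pik3cd was called at none of the 3 times (-0.25, -0.20 and 0.33).

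Among 9 tested genes of ITIM signalling, 4, 5 and 5 were called higher at 12, 36 and 72 h and none lower, beside the same 13.9%, 12.7% and 15.2% of all genes (median log2FC 0.24, 1.1 and 0.68). Ptpn6, which encodes SHP-1, had a log2FC of 0.97 (s.e. 0.25) at 12 h and 3.77 (s.e. 0.29) at 72 h, and Inpp5d, which encodes SHIP-1, of 0.02 (s.e. 0.20) and 2.26 (s.e. 0.21). The adaptor Dok1 was called at each time (1.42, 2.23 and 3.12). The adaptor Dok2 had 2.38 (s.e. 0.54) at 12 h, called, and -0.52 (s.e. 0.57) at 72 h, not called. Ptpn11, which encodes SHP-2, was not called at any of them (0.13, 0.14 and 0.21).

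Relatives of the 10 genes were tested where the table held them. Of all genes, 13.9%, 12.7% and 15.2% were called higher at 12, 36 and 72 h and 11.4%, 8.96% and 4.15% lower. Of 6 other Fc receptor genes, 1, 2 and 3 were called higher at 12, 36 and 72 h, at 12 h a share near that of all genes. Fcgr4, an activating IgG receptor that also pairs with Fcer1g, averaged 0.0488 CPM in controls and 2.16 CPM after SE at 12 h and 1.28 and 12.2 CPM at 72 h (log2FC 4.93, s.e. 0.55). Fcrl1 was called at 72 h (3.74, s.e. 0.96) and Trim21, a cytosolic receptor for antibody, at 36 h (1.41, s.e. 0.31) and 72 h (0.90, s.e. 0.31). Fcgrt, the neonatal Fc receptor, was not called (-0.44, -0.27 and 0.51). Of the 3 other CD300 genes tested, Cd300ld was called at each time and Cd300c2 at 36 h (0.96, s.e. 0.27) and 72 h (2.80, s.e. 0.30), and of 2 genes of the LILR and PIR family, Pirb was called at 36 h (1.80, s.e. 0.63) and 72 h (2.87, s.e. 0.65). Among 20 tested paired receptors of myeloid cells, 6 were called higher and 2 lower at 12 h, 12 and 1 at 36 h, and 15 and 0 at 72 h (median log2FC 0.56, 2.02 and 3.28), beside the shares of all genes given above. The 2 lower at 12 h were the sialic acid receptors Cd33 (-2.02, s.e. 0.29) and Siglech (-1.64, s.e. 0.28), and Cd33 was called higher at 72 h (2.90, s.e. 0.30). The largest values at 72 h were those of Clec4n, for which means of 0.0568 CPM in controls and 0.63 CPM after SE leave the fitted size uncertain, Cd22 (5.34, s.e. 1.08), Clec7a, a receptor for beta-glucan (4.98, s.e. 0.84), and Milr1 (4.96, s.e. 0.66). Trem2, a lipid receptor that signals through Tyrobp, had log2FC of 0.07 (s.e. 0.21), 1.39 (s.e. 0.21) and 2.81 (s.e. 0.22).

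Of 8 tested genes for ligands of these receptors, 3 were called higher and 1 lower at 12 h, 4 and 1 at 36 h and 5 and 0 at 72 h. Of all genes, 13.9%, 12.7% and 15.2% were called higher at these times and 11.4%, 8.96% and 4.15% lower. Ptx3, a soluble pattern recognition protein that binds Fc receptors, averaged 0.759 CPM in controls and 44.4 CPM after SE at 12 h (log2FC 5.78, s.e. 0.55), and its log2FC was 5.80 (s.e. 0.75) at 72 h. The integrin subunits Itgav and Itgb3 and fibronectin (Fn1) were called higher at 36 and 72 h. Sema4d, the ligand of Cd72, had log2FC of -0.35, -0.38 and 0.79 (s.e. 0.16 each), called at 72 h. Apoe, a reported ligand of Lilrb4, was called lower at 36 h (-1, s.e. 0.18) and was at 0.17 (s.e. 0.18) at 72 h. Ighm, the heavy chain of IgM, was called lower at 12 h (-1.64, s.e. 0.61).

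**Figure D5:**
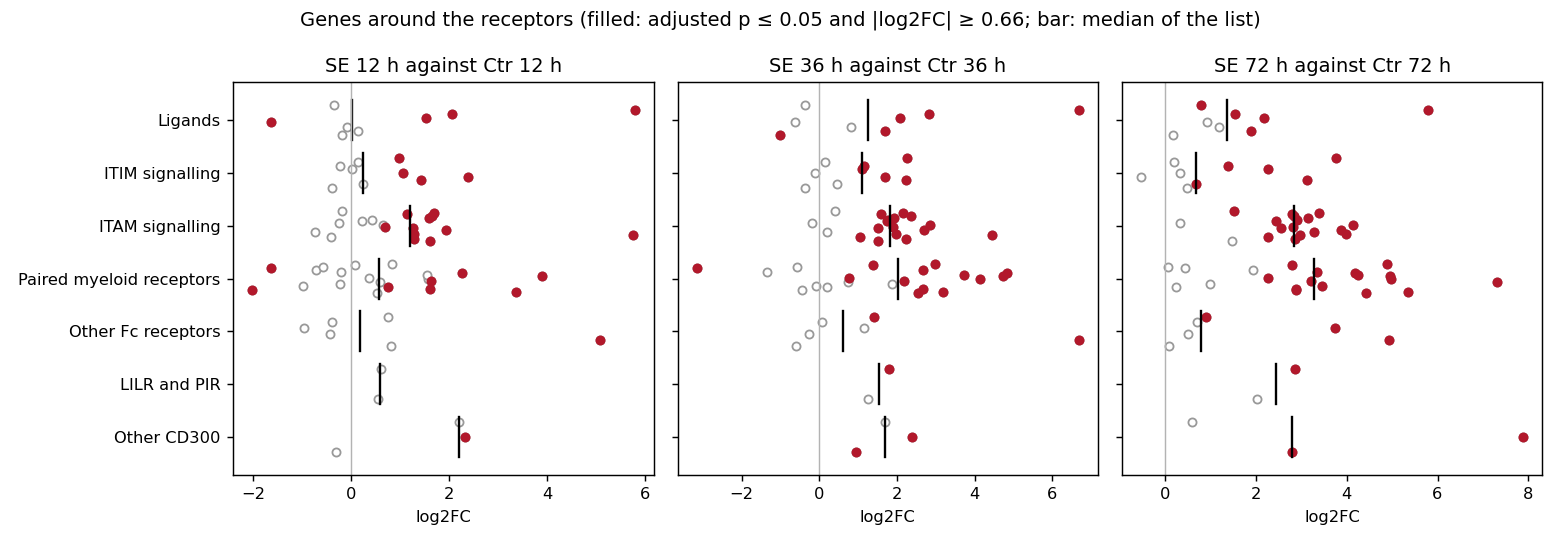
Log2FC (x axis) of each tested gene of 7 lists around the receptors (rows), for SE against Ctr at 12, 36 and 72 h. Filled points are called, and black bars are list medians. In ITAM signalling 11, 15 and 16 of 18 genes are called higher, and the points of Cd300ld and Clec4n at 72 h, fitted on control means of 0 and 0.0568 CPM, have no reliable size.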

How the data were processed

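RNA of microdissected CA1 was measured in 24 libraries, 3 in each of 8 groups. Per the labels and the study's methods, the authors trimmed paired reads with Trim Galore 0.6.6, aligned them with STAR 2.7.8a to GRCm39 (GENCODE M26), and counted reads per gene with HTSeq 0.13.5 without regard to strand. They deposited whole-number counts that are not normalized, and reads shared between genes were not counted under HTSeq's defaults. Of the genes in the table, 18552 were matched to GENCODE M39 for symbols, positions and sequences, and 95 were not.

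Counts were normalized with TMM in edgeR 4.0.16 (R 4.3.3), scaled to CPM, filtered with filterByExpr (18153 genes) and fitted with 8 group terms and 1 RUVr factor, following the study's use of RUV. The test was edgeR's quasi-likelihood F test, and p-values were adjusted over all tested genes by Benjamini-Hochberg. Calls required adjusted p no greater than 0.05 together with a log2FC of 0.66 or more in size against control, or 1 or more between SE times, and F tests needed only the adjusted p. The s.e. is that of the log2FC. Ratios used counts with 0.5 added and two-sided exact permutation tests over libraries, adjusted over the 4 ratios. Log2 CPM had a prior count of 2. The RUVr factor was 0.801 in Ctr 72 h replicate 2, -0.394 in replicate 1 and -0.349 in replicate 3. In every other library it was at most 0.129 in size, so fitted changes against Ctr 72 h rest in part on it. What the factor stands for was not tested. The fit was tested on simulated data.

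The members and the lists around them were chosen with earlier results of these data known. All 10 members are named in every comparison, and from each list up to 4 called genes with the largest change, together with members whose role bears on the receptors, which were picked after their values were seen. Pattern likeness was Pearson's r over the 15 SE libraries. Alternatives were DESeq2 1.42.0, limma-voom (limma 3.58.1), DESeq2's size factors, library totals only, no RUVr factor, other filters and thresholds, the range of the label numbers or the replicate number as a factor, a fit of the compared groups only, both Lilrb4 genes summed, subtraction of the control groups, and omission of each library. The label numbers were not balanced over the groups. Ctr 72 h had 167, 168 and 169 and SE 72 h had 104, 119 and 120, so condition and label range cannot be told apart within that comparison. No control had a number below 109, while SE 24 h had 97, 98 and 99. Replicate numbers did not pair the libraries, as the correlation of deviations between libraries with the same replicate number ran from -0.348 to 0.285. No libraries held identical values. Amino acid sequences were not used here. Some genes are not reported here.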

Additional observations from a re-analysis of the deposited data

Results flagged for a closer look

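The difference between the effect of SE at 72 h and that at 12 h, each against the controls of its own time, was past the threshold in 4 of the 10 genes, beside 18.6% of all genes called. It was 3.86 (log2 scale, s.e. 0.96) for Cd72, 3.02 (s.e. 0.49) for Fcgr1, 1.60 (s.e. 0.34) for Fcgr3 and 1.28 (s.e. 0.31) for Fcer1g. For Fcgr2b it was 0.43 (s.e. 0.37) and was not called. Between 36 and 12 h, a comparison added after the data were seen, Fcgr1 alone of the 10 was past the threshold, with 1.94 (s.e. 0.45), beside 3.35% of all genes. The genes had been selected on SE against control, so these values are a description, and the controls of Cd72 held at most 3 counts per library at 72 h. What lies behind them was not tested.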

How the results depend on the processing

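Counts of members called between SE times were small and moved with the setting. From 6 to 12 h, 2 were called, but 0 without the RUVr factor or with the compared groups only, 1 with limma-voom or the range of the label numbers, and 0 to 2 with a library left out. From 12 to 24 h, 1 was called, but 0 with the compared groups only, 2 with DESeq2 or no log2FC threshold, and 1 to 2 with a library left out. From 24 to 36 h, 0 were called, but 1 with DESeq2, limma-voom or the compared groups only. From 36 to 72 h, 3 were called, and 0 with the control groups subtracted, where Cd300lb gave no usable error because its controls held no count. Among the controls, 1 was called, but 0 without the RUVr factor, with limma-voom, with the range of the label numbers or with the replicate block, and 0 to 2 with a library left out.

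The counts against control stayed at 7 to 9 under all alternatives, those from 12 to 72 h at 4 to 8 and those of the F test over the SE times at 6 to 9. The late minus early log2 ratio of Lilrb4b to Lilrb4a was -0.95 with 0 added (exact permutation p = 0.0498), -1.55 for 72 h against 6 h only, and -1.19 to -0.68 with a library left out, that of Fcgr2b to Fcgr3 was 0.392 to 0.762 with a library left out and 1.42 for 72 h against 6 h only, and that of Fcgr2b to Fcgr1 was -1.24 to -1.0, or -0.69 for 72 h against 6 h only (exact permutation p = 0.1, the smallest possible).

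Signs changed only for values not called. For Fcgr3 these were 0.035 (library totals) and 0.096 (label numbers) from 6 to 12 h, and 0.065 (library totals), 0.027 (limma-voom), 0.000715 (filter of 10 counts in 12 libraries), 0.021 (label numbers), 0.022 (compared groups only) and 0.0126 (without Ctr 72 h replicate 2) from 24 to 36 h. For Cd300a they were -0.11 (limma-voom), -0.73 (label numbers), -0.077 (replicate block) and -0.0127 (without Ctr 72 h replicate 2) at 24 h against controls and -0.098 (label numbers) at 72 h. With controls subtracted, Lilrb4a was at -1.99 and Cd300a at -0.37 from 36 to 72 h, and Lilrb4a at -0.061, Cd300lb at 2.86 and Cd300lf at -1.19 from 12 to 72 h. With a library left out, Cd300a ran from -0.49 to 0.17 at 6 h, from -0.67 to 0.024 at 12 h and from -0.73 to 0.32 at 24 h against controls, from -0.068 to 0.98 between 12 and 24 h and from -0.30 to 1.04 between 24 and 36 h, and Fcgr3 from -0.22 to 0.17 between 6 and 12 h and from -0.19 to 0.094 between 24 and 36 h. The cause was not tested. The replicate block changed no other count by over 1.5 times. Low counts in controls, at most 3 per library for several genes, limit every fold against them.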
